A study of Homo sapiens with 15 samples.

Results

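THP-1 cells, a human monocytic leukaemia line, were stimulated with bacterial extracellular vesicles (BEVs) of *Escherichia coli* or of *Staphylococcus aureus*, and the RNA of the cells was compared across all genes. The BEVs of both species had been isolated from culture medium by ultracentrifugation (UC). The comparison holds 6 of the 15 RNA-seq libraries of the study, chosen by their labels alone. In the EUC group, 3 libraries came from cells given 1 μg/mL *E. coli* BEVs, and in the SUC group 3 libraries came from cells given 10 μg/mL *S. aureus* BEVs. The levels in 3 libraries of cells given PBS are set beside them. Another 6 libraries came from cells given the same doses of BEVs isolated with epsilon-poly-L-lysine (PL), 3 of *E. coli* (EPL) and 3 of *S. aureus* (SPL), and were used as a separate comparison of the species. The methods of the study give 6 hours of incubation, whereas the labels give Day 0. The dose differed together with the species, so an effect of the species and an effect of the dose cannot be told apart in these data. The *E. coli* strain was a laboratory cloning strain, and the cells were a single tumour line without other leukocytes. No label says that the 3 libraries of a group came from separate cultures, so the p-values measure the spread between these libraries, which may be technical.

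BEVs are membrane particles that bacteria shed. Those of Gram-negative bacteria such as *E. coli* carry lipopolysaccharide (LPS), which monocytes sense through TLR4 together with CD14. Those of Gram-positive bacteria such as *S. aureus* carry lipoproteins and lipoteichoic acid, which are sensed through TLR2. Both receptors use the adaptor MYD88 to switch on NF-kappa B and AP-1, the transcription factors of the inflammatory cytokines and chemokines. TLR4 also signals through TICAM1, which leads to interferon beta and from there to the interferon-stimulated genes.

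The RNA of EUC cells differed from that of SUC cells mainly in one direction. Of the tested members, 19 of 28 chemokines, 14 of 27 interleukins and 13 of 24 dendritic-type maturation genes were higher in EUC at an adjusted p of at most 0.05. The gene lists behind these counts were chosen with earlier results of these data known, so the shares are descriptions and no test. A small set of genes was higher in SUC, and most of these were genes with their highest level in PBS cells. Of 17198 genes tested, 126 (0.733%) were differentially expressed genes (DEGs) higher in EUC and 6 (0.0349%) were DEGs higher in SUC. DEGs passed edgeR's quasi-likelihood test at an adjusted p (Benjamini-Hochberg) of 0.01 or less and differed by 1 or more on the log2 scale. All log2 fold changes of this comparison are EUC minus SUC. At an adjusted p of at most 0.05 without a fold limit, 593 genes (3.45%) were higher in EUC and 244 (1.42%) were higher in SUC. All counts of called list members below are to be read against these shares. At 1.42% of all genes, a count of 0 higher in SUC in a short list is no result in itself. The median log2 fold change of all tested genes was -0.01, and 2501 genes had an unadjusted p of at most 0.05. Of the 126 DEGs, 114 were protein-coding and 10 were lncRNA genes. Levels are given as CPM, the counts of a gene scaled to the size of its library. This size is the library total adjusted by a TMM scaling factor, and not the raw total. As CPM, the EUC libraries lay above or below all SUC libraries for all 126 and all 6 DEGs. The same held for 16.8% of all tested genes. In bulk RNA, a difference in the share of responding cells and one in the RNA per cell cannot be told apart. The count depended on the fit. With only the 6 libraries compared, there were 24 DEGs higher in EUC and 0 higher in SUC, and a test against a fold change of 2 (glmTreat) called 7 and 0. Without SUC2 the counts were 73 and 2, and without SUC1 10 were higher in SUC. At an adjusted p of at most 0.05, the counts were 312 and 92 without SUC2, and 131 were higher in SUC without EUC2.

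**Figure D1:**
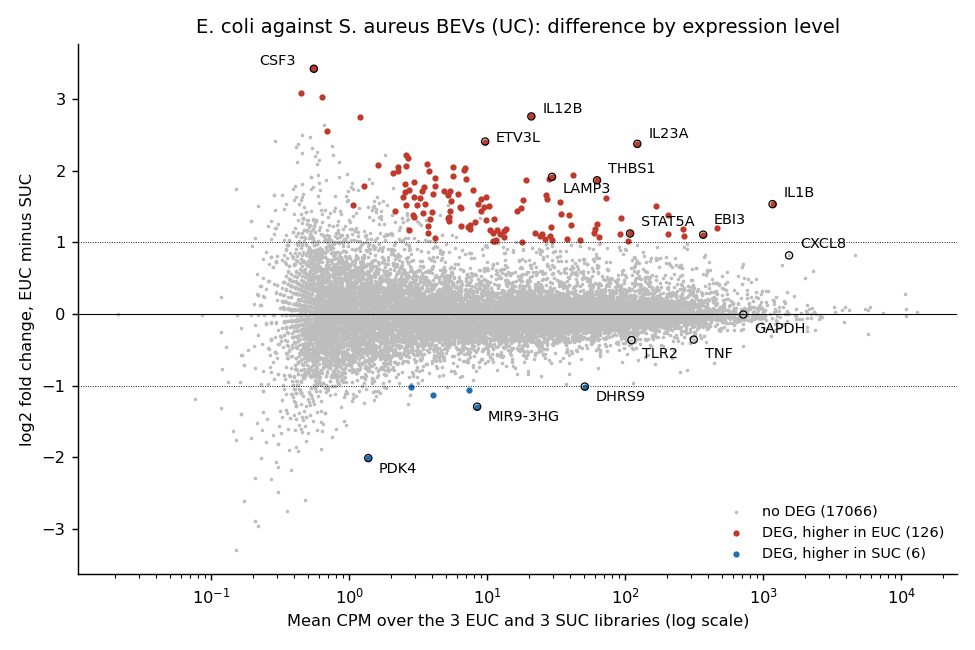
Each point is one of the 17198 tested genes, with its mean CPM over the 6 libraries on a log axis and its log2 fold change, EUC minus SUC, on the vertical axis. The 126 red DEGs lie above the dotted line at 1, and the 6 blue DEGs lie below the line at -1.

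Between 14524180 and 16637345 reads were counted on genes in each of the 6 libraries. The first principal component of log2 CPM, with 41.4% of the variance, did not follow the species. It set EUC3 and SUC3 apart from the other libraries, and these had 7.23% and 7.27% of their counts on cytosolic ribosomal protein genes, against 4.77% to 5.88% in the other 4. The second component, with 25.8%, separated all EUC libraries from all SUC libraries. Without EUC3 and SUC3, 105 DEGs were higher in EUC, 96 of them among the 126, and 6 were higher in SUC. SUC2 was the lowest SUC library for 78 of the 126 DEGs (61.9%), and for 24.5% of all tested genes. The part of these differences between libraries in the counts of DEGs was not tested beyond these values. The 12 monocyte markers, of which 11 were tested, summed to 2164 to 2461 CPM in EUC and 2003 to 2201 CPM in SUC. CD33, a monocyte marker, was higher in SUC at an adjusted p of at most 0.05. CD2, CD3D, CD3E and CD3G of the 8 T cell markers, MS4A1 of the 6 B cell markers and HBA1 and HBB of the 5 erythroid markers had no count in the 6 libraries. The summed level of the T cell markers, led by CD5, was 2.88 to 4.22 CPM in EUC and 2.18 to 2.80 CPM in SUC. That of the B cell markers, led by PAX5, was 13.5 to 27.1 CPM in EUC and 12.5 to 20.5 CPM in SUC, with 1 of 3 tested members, CD22, higher in EUC. That of the 5 NK cell markers, led by NCAM1, was 8.40 to 11.9 CPM in EUC and 10.2 to 11.8 CPM in SUC, with no tested member called. The 6 epithelial markers, led by KRT8, summed to 1.56 to 2.69 CPM in EUC and 1.5 to 2.44 CPM in SUC. The summed level of the 6 fibroblast markers was 5.65 to 6.40 CPM in EUC and 3.56 to 4.57 CPM in SUC, where COL1A1 was higher in EUC and COL1A2 had no count. The part of these markers in the results was not tested.

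**Figure D2:**
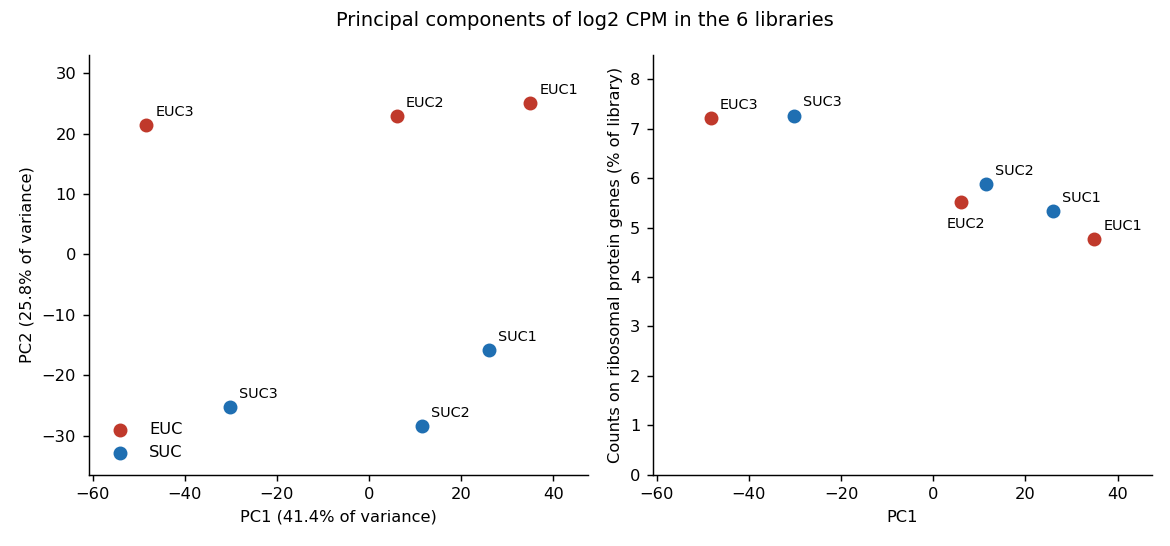
Principal components of log2 CPM in the 3 EUC and 3 SUC libraries (left), and the share of counts on ribosomal protein genes against the first component (right). EUC3 and SUC3 stand at the negative end of the first component with the highest shares, 7.23% and 7.27%, and the second component separates the groups.

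The cytokine genes IL1B, CXCL8 and IL6, whose mRNA the study also measured by PCR, and the reference gene GAPDH were read from the libraries first. IL1B (ENSG00000125538, hg38, chr2:112829751-112836816) encodes the pyrogenic cytokine IL-1β. Its level was 1524, 1688 and 1987 CPM in the EUC libraries, 666, 498 and 633 CPM in the SUC libraries and 1.54, 2.71 and 2.21 CPM in the PBS libraries. Each EUC library was above each SUC library, and the fitted level was 2.89-fold higher (log2 fold change 1.53 ± 0.13 SE, adjusted p = 4.38e-06). CXCL8, which encodes the neutrophil attractant IL-8, had 1682, 1835 and 2359.7 CPM in EUC and 1095, 959 and 1283 CPM in SUC, against 7.81, 6.88 and 7.45 CPM in PBS. Its difference of 0.82 ± 0.12 on the log2 scale passed the test (adjusted p = 0.000454) but was under the fold limit of a DEG, and did not pass with only the 6 libraries (adjusted p = 0.0504). IL6 was near the limit of detection, with 0.585, 1.22 and 1.71 CPM in EUC, 0.547, 0.437 and 0.660 CPM in SUC and no count in PBS. Its groups overlapped and its log2 fold change of 1.09 ± 0.45 did not pass (adjusted p = 0.255). GAPDH, an enzyme of glycolysis, had 713 ± 36.3 CPM in EUC and 717 ± 31.4 CPM in SUC (SD, n = 3), and its difference of -0.01 had a 95% interval of -0.16 to 0.14, with the sign depending on the libraries used.

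**Figure D3:**
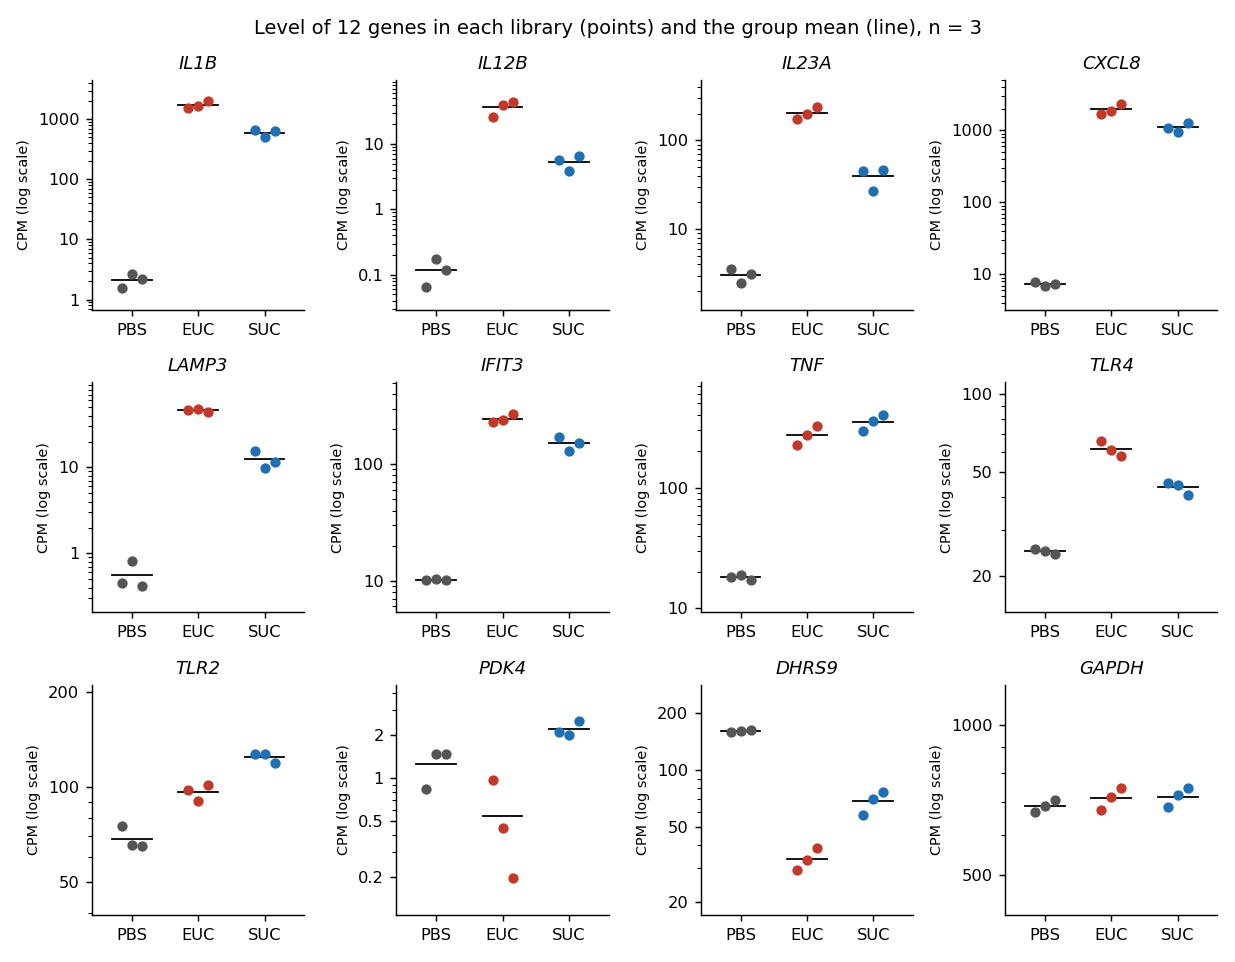
CPM of 12 genes in each PBS, EUC and SUC library on log axes, with a line at the mean of 3 libraries. IL1B, IL12B, IL23A, CXCL8, LAMP3, IFIT3 and TLR4 are higher in every EUC library than in every SUC library, TLR2, PDK4 and DHRS9 are lower, and the groups overlap for TNF and GAPDH.

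Among interleukins and haematopoietic growth factors, 14 of 27 tested members were higher in EUC at an adjusted p of at most 0.05, 7 of them as DEGs, and 0 were higher in SUC. The median log2 fold change of the list was 0.91. The subunits of IL-23 differed most among members with a mean of at least 1 CPM. IL12B (hg38, chr5:159314780-159330863), the subunit that IL-12 and IL-23 share, had 26.4, 39.0 and 43.6 CPM in EUC, 5.67, 3.87 and 6.60 CPM in SUC and 0.0640, 0.176 and 0.119 CPM in PBS. It was 6.76-fold higher in EUC (log2 fold change 2.76 ± 0.22, adjusted p = 2.73e-06), the largest difference among DEGs with a mean of at least 1 CPM. IL23A (hg38, chr12:56334174-56340410), the subunit particular to IL-23, had 173, 201 and 240.5 CPM in EUC and 45.4, 27.2 and 45.9 CPM in SUC, with 3.52, 2.47 and 3.16 CPM in PBS. The lowest EUC library was thus far above the highest SUC library, and the fold was 5.18 (log2 2.37 ± 0.17, adjusted p = 2.05e-06). The alarmins IL1A and IL33 followed. IL1A had 14, 13.7 and 14.2 CPM in EUC and 6.56, 5.19 and 5.08 CPM in SUC, 2.49-fold higher. IL33 had 5.27, 6.41 and 6.11 CPM in EUC, 1.37, 1.06 and 1.72 CPM in SUC and no count in PBS, 4.28-fold higher. CSF3, the granulocyte growth factor, was one of 5 DEGs with a mean under 1 CPM over the 6 libraries, along with DNASE1L3, SERPINB9P1, EVA1A and ENSG00000167912, and these were named after their values were seen. CSF3 had 0.976, 0.897 and 1.18 CPM in EUC and 0.205, 0 and 0.0660 CPM in SUC, so its log2 fold change of 3.42 ± 0.63 rests on few counts. Without SUC2, 7 members of this list were called, and 6 with only the 6 libraries compared.

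Chemokines had the largest share of called members of any list, with 19 of 28 tested (67.9%) higher in EUC, 12 of them DEGs, and 0 higher in SUC. Their median log2 fold change was 1.01. The neutrophil attractant CXCL1 had 80.3, 79.6 and 102 CPM in EUC and 38.0, 32.2 and 39.5 CPM in SUC (2.39-fold, adjusted p = 4.11e-05). Attractants of other leukocytes moved in the same direction. CCL8, which draws monocytes, had 36.8, 36.6 and 49.0 CPM in EUC and 16.3, 10.4 and 13.5 CPM in SUC, without a count in PBS (3.05-fold, adjusted p = 4.33e-05). CCL24, an attractant of eosinophils, had 24.3, 24.6 and 32.9 and 8.81, 7.87 and 10.4 CPM (3.02-fold), and CXCL12, known for holding progenitor cells in the bone marrow, had 54.2, 46.1 and 49.2 and 24.8, 15.0 and 17.2 CPM (2.63-fold). None of these 4 chemokines had overlapping groups. CXCL13, which draws B cells, and CCL1 were among the largest differences of all DEGs at 4.64-fold and 4.16-fold, but at means of only 4.27 ± 0.649 and 3.66 ± 0.878 CPM in EUC (SD, n = 3). Reads of near-identical chemokine genes, such as CXCL1, CXCL2 and CXCL3 or CCL4 and CCL4L2, may have been split between copies, so values of single members are less certain than the direction of the list. Called members numbered 15 without SUC2 and 12 with only the 6 libraries compared.

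The promoters of 5 DEGs are printed because NF-kappa B, AP-1 and the interferon-activated factors act through short motifs near the start of such genes. ISG20 was picked outside the rule for named genes given below, so the 5 are examples and no sample of the DEGs. They are the 250 bases before the RefSeq start in GRCh38.p14, 5′ to 3′ on the strand of the gene, with motif matches in capitals. IL12B lies at chr5:159330488-159330737 (minus strand), IL23A at chr12:56338634-56338883 (plus), ISG20 at chr15:88638766-88639015 (plus), THBS1 at chr15:39580829-39581078 (plus) and PDK4 at chr7:95596517-95596766 (minus).
IL12B: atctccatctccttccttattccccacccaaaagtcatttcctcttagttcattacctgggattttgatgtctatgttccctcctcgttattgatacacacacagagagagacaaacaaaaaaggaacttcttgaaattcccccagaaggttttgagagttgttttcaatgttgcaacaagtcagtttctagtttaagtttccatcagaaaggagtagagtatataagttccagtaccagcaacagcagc
IL23A: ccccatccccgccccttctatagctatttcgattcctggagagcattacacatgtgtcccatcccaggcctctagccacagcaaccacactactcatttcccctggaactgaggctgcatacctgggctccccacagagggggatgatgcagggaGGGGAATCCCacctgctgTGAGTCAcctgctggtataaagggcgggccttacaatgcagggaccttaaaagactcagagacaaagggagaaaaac
ISG20: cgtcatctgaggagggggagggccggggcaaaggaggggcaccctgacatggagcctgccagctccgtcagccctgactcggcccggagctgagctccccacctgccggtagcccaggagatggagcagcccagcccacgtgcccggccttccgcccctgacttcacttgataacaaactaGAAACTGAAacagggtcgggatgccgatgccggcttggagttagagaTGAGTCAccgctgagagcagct
THBS1: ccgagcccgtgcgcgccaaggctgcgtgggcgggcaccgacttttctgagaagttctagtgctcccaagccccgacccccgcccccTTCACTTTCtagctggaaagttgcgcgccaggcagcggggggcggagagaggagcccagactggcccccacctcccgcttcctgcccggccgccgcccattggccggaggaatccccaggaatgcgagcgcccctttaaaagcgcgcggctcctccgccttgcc
PDK4: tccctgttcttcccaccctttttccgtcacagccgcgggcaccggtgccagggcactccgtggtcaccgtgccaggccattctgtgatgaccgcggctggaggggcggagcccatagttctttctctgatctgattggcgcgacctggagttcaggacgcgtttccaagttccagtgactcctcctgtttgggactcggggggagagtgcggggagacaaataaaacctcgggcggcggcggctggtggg
IL12B, IL23A, ISG20 and THBS1 were DEGs higher in EUC, and PDK4 was a DEG higher in SUC. The motifs searched on both strands were the kappa B motif GGGRNNYYCC, the AP-1 motif TGANTCA, the C/EBP motif TTGCNNAA and the core of the interferon-stimulated response element, GAAANNGAA. R is A or G, Y is C or T, and N is any base. Only exact matches were counted. IL23A held a kappa B match 95 to 86 bases before its start and an AP-1 match 77 to 71 bases before it. ISG20, an interferon-stimulated exonuclease, held the response element core 69 to 61 bases and AP-1 22 to 16 bases before its start, and THBS1 held the core on the other strand. No match shown overlapped a match of another motif. IL12B and PDK4 held no exact match in this window, and a site that departs from a motif by a letter would be missed. IL1B, whose promoter is not printed, held only a C/EBP match, 215 to 208 bases before its start. LAMP3 had no entry in the table. Of 136 promoters of 93 DEGs higher in EUC, 19.9% held the kappa B motif, against 12.1% of 16526 promoters of tested genes and 9.96% of all 35116 RefSeq promoters. The AP-1 motif was in 13.2%, 4.62% and 6.57% of the same sets, the response element core in 5.15%, 5.68% and 6.88%, and the C/EBP motif in 6.62%, 6.69% and 9.05%. Among calls at an adjusted p up to 0.05, the kappa B motif was in 15.1% of 669 promoters of genes higher in EUC. It was in 15.6% of 302 promoters of genes higher in SUC, so its share was alike in both directions there. Of the same sets, the AP-1 motif was in 9.12% and 5.96%, the response element core in 8.97% and 3.64%, and C/EBP in 8.07% and 5.96%. These shares are descriptions, since promoters of a gene overlap and no test was made.

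All 57 tested interferon-stimulated genes had a positive log2 fold change, and 30 of them (52.6%) were higher in EUC at an adjusted p of at most 0.05, against 3.45% of all tested genes. The differences were small, with a median of 0.48, and 3 members were DEGs. Of 54 promoters of this list, 61.1% held the response element core. LAMP3 (hg38, chr3:183122215-183163839), a lysosomal membrane protein of maturing dendritic cells, had 47.0, 48.2 and 44.4 CPM in EUC, 15.6, 9.93 and 11.6 CPM in SUC and 0.448, 0.823 and 0.417 CPM in PBS. It was 3.77-fold higher with little spread in EUC (log2 1.91 ± 0.14, adjusted p = 2.05e-06). APOBEC3A, a cytidine deaminase that restricts viruses, had 8.19, 7.62 and 11.4 CPM in EUC and 2.39, 1.12 and 3.04 CPM in SUC (4.16-fold, adjusted p = 0.000241), and it shares sequence with a neighbouring copy. The classical antiviral members changed less. IFIT3 had 229, 242 and 268 CPM in EUC and 172, 129 and 152 CPM in SUC (1.63-fold, adjusted p = 0.000183), and IFIT1, which binds foreign RNA ends, differed 1.68-fold. Among guanylate-binding proteins, GTPases that attack intracellular bacteria, 3 of 5 tested were higher in EUC. GBP5 was 1.90-fold higher (adjusted p = 0.000139), whereas the calls of GBP2 and GBP4 were lost without any of 6 and 4 single libraries, with an adjusted p of up to 0.179 and 0.121 without SUC2. Without EUC2 or SUC2, 1 member was called. The number of called interferon-stimulated genes was 18 without SUC2, 9 with only the 6 libraries compared and 28 without EUC3 and SUC3.

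The interferon genes themselves were near or under the limit of detection. Of 16 interferon and receptor genes, 6 passed the filter on low counts and 1 was called. IFNB1, interferon beta, had 0.195, 0.577 and 1.45 CPM in EUC, 0.410, 0.937 and 0.660 CPM in SUC and 0.192, 0.118 and 0 CPM in PBS. The groups overlapped, and the interval of its log2 difference, -1.23 to 1.49, holds large differences in both directions, so no difference was detectable at this depth. IFNGR1, a receptor chain for interferon gamma, was 1.29-fold higher in EUC (adjusted p = 0.0057, and 0.0526 without SUC2).

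Of the TNF superfamily of ligands and receptors, 8 of 29 tested members were higher in EUC, 3 as DEGs, and 1 was higher in SUC. The latter was the ligand TNFSF14, whose call was lost without SUC2. TNFRSF9, a co-stimulatory receptor known from T cells, had 56.8, 48.6 and 46.6 CPM in EUC and 18.9, 16.2 and 16.2 CPM in SUC (2.96-fold, adjusted p = 4.01e-06). TNFRSF18, another such receptor, had 55.7, 66.9 and 77.4 CPM in EUC and 19.0, 12.7 and 20.6 CPM in SUC, a 3.83-fold difference. TNFRSF1B, a receptor of TNF itself, differed 1.87-fold, and CD40, which receives help from T cells, 1.73-fold. The ligand TNF went the other way in its values. It had 227, 273 and 323 CPM in EUC, 296, 359 and 400.2 CPM in SUC and 18.3, 19.0 and 17.3 CPM in PBS, with overlapping groups and a log2 fold change of -0.36 ± 0.12 that did not pass (adjusted p = 0.11). This depended on the libraries, since TNF passed as higher in SUC without EUC3 (adjusted p = 0.0108), without SUC1, without both EUC3 and SUC3 (adjusted p = 0.0277), without a filter on low counts and with the ribosomal protein share as a covariate. Dendritic-type maturation and co-stimulation genes had 13 of 24 tested members higher in EUC, 2 of them DEGs, 0 higher in SUC and a median of 0.71. Besides LAMP3 and CD40, SLAMF7, a receptor of activated leukocytes, had 351, 370.2 and 389.6 CPM in EUC and 221, 159.7 and 182 CPM in SUC (1.98-fold, adjusted p = 1.29e-05), and CD44, the hyaluronan receptor, differed 1.63-fold. Without SUC2 the list had 8 called members, and 6 with only the 6 libraries compared.

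Receptors of the bacterial ligands differed little, and in opposite directions. Of 11 tested Toll-like receptors and co-receptors, 1 (9.09%) was higher in EUC and 2 were higher in SUC. TLR4 (hg38, chr9:117704175-117724735), the receptor for LPS, had 66.1, 61.0 and 57.7 CPM in EUC, 45.6, 44.7 and 40.9 CPM in SUC and 25.3, 24.8 and 24.3 CPM in PBS. It was 1.41-fold higher in EUC (log2 0.49 ± 0.11, adjusted p = 0.0114). TLR2 (hg38, chr4:153684070-153706260), the receptor for lipoproteins, had 98.4, 90.3 and 102 CPM in EUC, 128, 127 and 119 CPM in SUC and 75.2, 65.3 and 65.1 CPM in PBS. It was 1.29-fold higher in SUC (log2 -0.37 ± 0.08, adjusted p = 0.0112). The groups of neither gene overlapped, and PBS cells were lowest for both. Neither call passed without SUC2 or with only the 6 libraries. The adjusted p of TLR4 was 0.0541 without SUC2, and that of TLR2 was 0.0756 without EUC2. In EPL against SPL, 0 of the 11 passed in either direction, and TLR2 had a log2 fold change of -0.19 (adjusted p = 0.495). CD180, which restrains TLR4, was 1.96-fold higher in SUC at 3.69 ± 0.618 CPM (SD, n = 3, adjusted p = 0.0335, and 0.173 without SUC2, a call that was also lost without EUC1, without SUC3 and without both EUC3 and SUC3). Of the adaptors and kinases, 1 of 24 tested members (4.17%) was higher in EUC and 1 in SUC, near the 3.45% and 1.42% of all tested genes. The kinase IRAK2 had 43.1, 52.1 and 50.6 CPM in EUC and 34.3, 27.9 and 31.9 CPM in SUC (1.55-fold, adjusted p = 0.00203). IRF8, a factor of monocyte identity, was 1.26-fold higher in SUC (adjusted p = 0.0351), a call that was lost when any of 10 single libraries was left out, with an adjusted p of up to 0.193 without SUC2. Among cytosolic and peptidoglycan sensors, 2 of 20 tested were higher in EUC and 1 in SUC. PGLYRP2, an amidase that cuts peptidoglycan, was a DEG with 8.58, 8.46 and 9.86 CPM in EUC and 2.25, 2.56 and 2.24 CPM in SUC (3.8-fold, adjusted p = 3.26e-05). The others were NINJ1, a protein of membrane rupture (1.53-fold higher in EUC, adjusted p = 0.00726, and 0.0681 without SUC2), and NLRP12 (1.44-fold higher in SUC, adjusted p = 0.0409, and up to 0.188 without EUC2, lost without any of 8 single libraries).

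NF-kappa B and AP-1 act downstream of these receptors. Of 30 tested NF-kappa B subunits, inhibitors and feedback genes, 8 were higher in EUC and 0 in SUC, and 1 was a DEG. This was TRAF1, an adaptor of TNF receptors that NF-kappa B switches on, with 118, 113 and 98 CPM in EUC and 46.7, 30.5 and 29.8 CPM in SUC (3.07-fold, adjusted p = 7.32e-06). SOD2, the mitochondrial superoxide dismutase, had 4898, 5821 and 6855 CPM in EUC and 3433, 2960.4 and 3588 CPM in SUC, against 78.2, 76.9 and 82.3 CPM in PBS. That is a 1.76-fold difference between the BEV groups (adjusted p = 0.000142) at levels far above PBS in both. TNFAIP2 and TNIP3, the latter an inhibitor of NF-kappa B, differed 1.52-fold and 1.85-fold. Of 35 tested AP-1, EGR and other immediate-early factors, 11 were higher in EUC and 0 in SUC. ETV3L, an ETS-family factor, had 15.9, 16.1 and 16.7 CPM in EUC, 4.30, 1.44 and 3.50 CPM in SUC and no count in PBS (5.30-fold, adjusted p = 4.33e-05). ATF3, a stress factor that limits TLR responses, had 91.8, 88.2 and 77.3 and 51.1, 38.7 and 40.9 CPM (1.97-fold), and JUN, a subunit of AP-1, differed 1.56-fold. Called immediate-early factors numbered 7 without SUC2 and 4 with only the 6 libraries compared. NF-kappa B genes numbered 6 without EUC2 and 5 with the 6 libraries.

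In the JAK-STAT list, 5 of 22 tested members were higher in EUC and 0 in SUC, where 3.45% and 1.42% of all tested genes were. STAT5A had 133, 158 and 155 CPM in EUC and 73.9, 61.5 and 69.1 CPM in SUC (2.18-fold, adjusted p = 2.73e-06), one of the 5 smallest p of all. STAT4, the factor that responds to IL-12 and IL-23, had 24, 27.3 and 26.1 CPM in EUC, 11.4, 7.56 and 8.98 CPM in SUC and 0.384, 0.471 and 0.537 CPM in PBS (2.77-fold, adjusted p = 4.51e-06). Both were DEGs without overlap, while the inhibitor SOCS3 differed 1.66-fold. Exons of STAT5A overlap those of STAT5B on the other strand, and the strand setting of the counts is not given in the sources used here. Negative feedback genes, which are dual-specificity phosphatases and mRNA decay factors, had 8 of 19 tested members higher in EUC and 1 higher in SUC. DUSP1, the phosphatase that switches off p38 and JNK, had 76.3, 92.6 and 92.0 CPM in EUC and 38.4, 37.6 and 48.0 CPM in SUC (2.1-fold, adjusted p = 0.000374), and DUSP4 and DUSP6 differed 1.41-fold and 1.58-fold. The feedback list had 4 called members without SUC2.

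Enzymes, proteases and matrix genes added further DEGs. THBS1, the matrix protein thrombospondin, had 115, 91.0 and 87.8 CPM in EUC, 33.8, 24.1 and 22.8 CPM in SUC and 0.704, 0.529 and 0.656 CPM in PBS (3.64-fold, adjusted p = 2.05e-06). Its lowest EUC library was above its highest SUC library, and its exons overlap those of THBS1-AS1 and FSIP1 on the other strand. MMP9, a gelatinase, had 57.1, 46.8 and 49.6 CPM in EUC and 30.1, 21.7 and 22.5 CPM in SUC (2.07-fold), and of 25 tested genes of proteases, coagulation and matrix 8 were higher in EUC and 2 in SUC. Without SUC2 these counts were 6 and 0, and 1 was higher in SUC without EUC1, EUC3, SUC1 or SUC3. PTGS2, the inducible prostaglandin synthase, had 16.6, 17.7 and 13.9 CPM in EUC and 6.15, 6.25 and 6.87 CPM in SUC (2.50-fold, adjusted p = 0.000143). With NAMPT (1.75-fold), KYNU (1.74-fold) and IDO2 (3.44-fold, adjusted p = 0.00758 and 0.05 without SUC2), enzymes of NAD and tryptophan metabolism, it made up the 4 of 21 tested members called in the list of prostaglandin, kynurenine and itaconate enzymes. Other large differences were CALCRL, a receptor for adrenomedullin and related peptides (12, 11.8 and 9.40 CPM in EUC and 3.14, 2.25 and 2.71 CPM in SUC), PLAT, the tissue plasminogen activator (4.17-fold), the secreted ligand WNT5A (4.24-fold), LRRN1 (4.50-fold) and the collagen COL5A3 (6.69-fold). Of these, COL5A3 is a member of the list of proteases, coagulation and matrix. The adjusted p of WNT5A, LRRN1 and COL5A3 was 0.00452, 0.000836 and 0.00284, and rose to 0.0526, 0.0532 and 0.0504 with only the 6 libraries compared.

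The 6 DEGs higher in SUC belonged to no common list. PDK4 (hg38, chr7:95583499-95596516), a kinase that shuts off pyruvate dehydrogenase and spares glucose, had 0.976, 0.449 and 0.197 CPM in EUC, 2.12, 2.0 and 2.51 CPM in SUC and 0.832, 1.47 and 1.49 CPM in PBS. It was 4.03-fold higher in SUC (log2 -2.01 ± 0.37, adjusted p = 0.003), at a low level and with a wide spread in EUC. DHRS9 (hg38, chr2:169064789-169096167), a dehydrogenase of retinol and steroids, had 29.6, 33.1 and 38.4 CPM in EUC, 57.5, 70.2 and 76.4 CPM in SUC and 159, 161 and 163 CPM in PBS. The SUC libraries thus lay between EUC and PBS without overlap, 2.02-fold above EUC (adjusted p = 7.16e-05). MIR9-3HG, a host gene of the microRNA miR-9, showed the same order with 4.16, 6.02 and 4.47 CPM in EUC, 12.7, 12.6 and 10.7 CPM in SUC and 43.3, 44.8 and 44.7 CPM in PBS (2.45-fold, adjusted p = 4.33e-05). PDE7B, a cyclic AMP phosphodiesterase, CCDC9B and the lncRNA ENSG00000240859 were 2.20-fold, 2.02-fold and 2.09-fold higher in SUC, at means of 5.57 ± 1.38, 3.77 ± 0.509 and 9.91 ± 0.133 CPM (SD, n = 3). Of the 6, only DHRS9 and MIR9-3HG were still DEGs without SUC2, and none was with only the 6 libraries compared, where the adjusted p was 0.0163 for DHRS9, 0.0162 for MIR9-3HG and 0.095 for PDK4.

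Of 25 tested genes of cholesterol synthesis and uptake, 4 were higher in SUC and 1 was higher in EUC, where 1.42% and 3.45% of all tested genes were, and the median was -0.18. FADS2, a fatty acid desaturase, had 47.9, 55.2 and 54.2 CPM in EUC, 79.4, 80.7 and 75.5 CPM in SUC and 113, 113 and 113 CPM in PBS (1.5-fold, adjusted p = 0.000183). SCD, another desaturase, was 1.42-fold higher in SUC. The member that went the other way was INSIG1, which holds back the activation of sterol genes, with 128, 108 and 130.5 CPM in EUC and 67.2, 64.6 and 73.9 CPM in SUC (1.78-fold, adjusted p = 0.000136). The call of SCD did not hold without EUC2, without EUC3 or without SUC2. In the list, 1 member was higher in SUC without SUC2, and 2 members were without EUC2 or SUC1. Of 29 tested PPAR and fatty acid target genes, 3 were higher in each direction (10.3%). Besides PDK4, the members higher in SUC were ACADM and CPT1A, enzymes of fatty acid oxidation, at 1.49-fold and 1.40-fold (adjusted p = 0.00714 and 0.0123, the latter 0.0649 without SUC2). G0S2, an inhibitor of fat breakdown, was a DEG higher in EUC with 81.3, 118 and 177 CPM against 47.4, 51.5 and 75.2 CPM in SUC. Members higher in EUC numbered 1 without EUC1, SUC2 or SUC3, and members higher in SUC numbered 5 without EUC3.

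The remaining lists had few called members, to be read against the 3.45% of all tested genes higher in EUC and the 1.42% higher in SUC. In oxidative stress and NRF2 targets, 4 of 25 tested were higher in EUC, among them HMOX1, the haem oxygenase (1.57-fold, adjusted p = 0.00152). CAT, the catalase, was 1.37-fold higher in SUC with 148, 159.9 and 168 CPM in EUC, 205, 222 and 224 CPM in SUC and 482, 479.8 and 477 CPM in PBS. In glycolysis and hypoxia, 4 of 29 were higher in EUC and 1 in SUC. The latter was NDRG1, a hypoxia-induced gene whose call was lost without EUC2, SUC1, SUC2 or SUC3, or without any PBS library. The glucose transporter SLC2A1 was 1.46-fold, PFKFB3 1.54-fold and HIF1A 1.39-fold higher in EUC. Of 6 tested metallothioneins, MT2A was 2.27-fold higher in EUC with 271, 294 and 531 CPM against 163, 114 and 207 CPM in SUC (adjusted p = 0.00653, and 0.0559 without SUC2), where EUC3 was far above the other EUC libraries. Of 23 tested apoptosis and survival genes, 2 were higher in EUC, among them BIRC3, an inhibitor of apoptosis (1.5-fold), and 4 were without EUC1. Cell cycle and replication had 1 of 33 tested members (3.03%) higher in each direction, a share near that of all tested genes, CDKN1A (1.38-fold higher in EUC, adjusted p = 0.00149) and MCM6 (1.23-fold higher in SUC, adjusted p = 0.0416). Heat shock and the unfolded protein response had 1 of 24, HSPH1, 1.20-fold higher in SUC (adjusted p = 0.042). The calls of MCM6 and HSPH1 were each lost when any of 12 single libraries was left out, with an adjusted p of up to 0.158 and 0.166. Without EUC3, 6 members of the heat shock list were higher in SUC. With only the 6 libraries compared, the adjusted p was between 0.0504 and 0.281 for IFNGR1, GBP2, GBP4, CD180, IRF8, NINJ1, NLRP12, DUSP6, G0S2, ACADM, CPT1A, SCD, MT2A, CAT, HMOX1, PFKFB3, CDKN1A, MCM6, BIRC3 and HSPH1, which did not pass there.

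**Figure D4:**
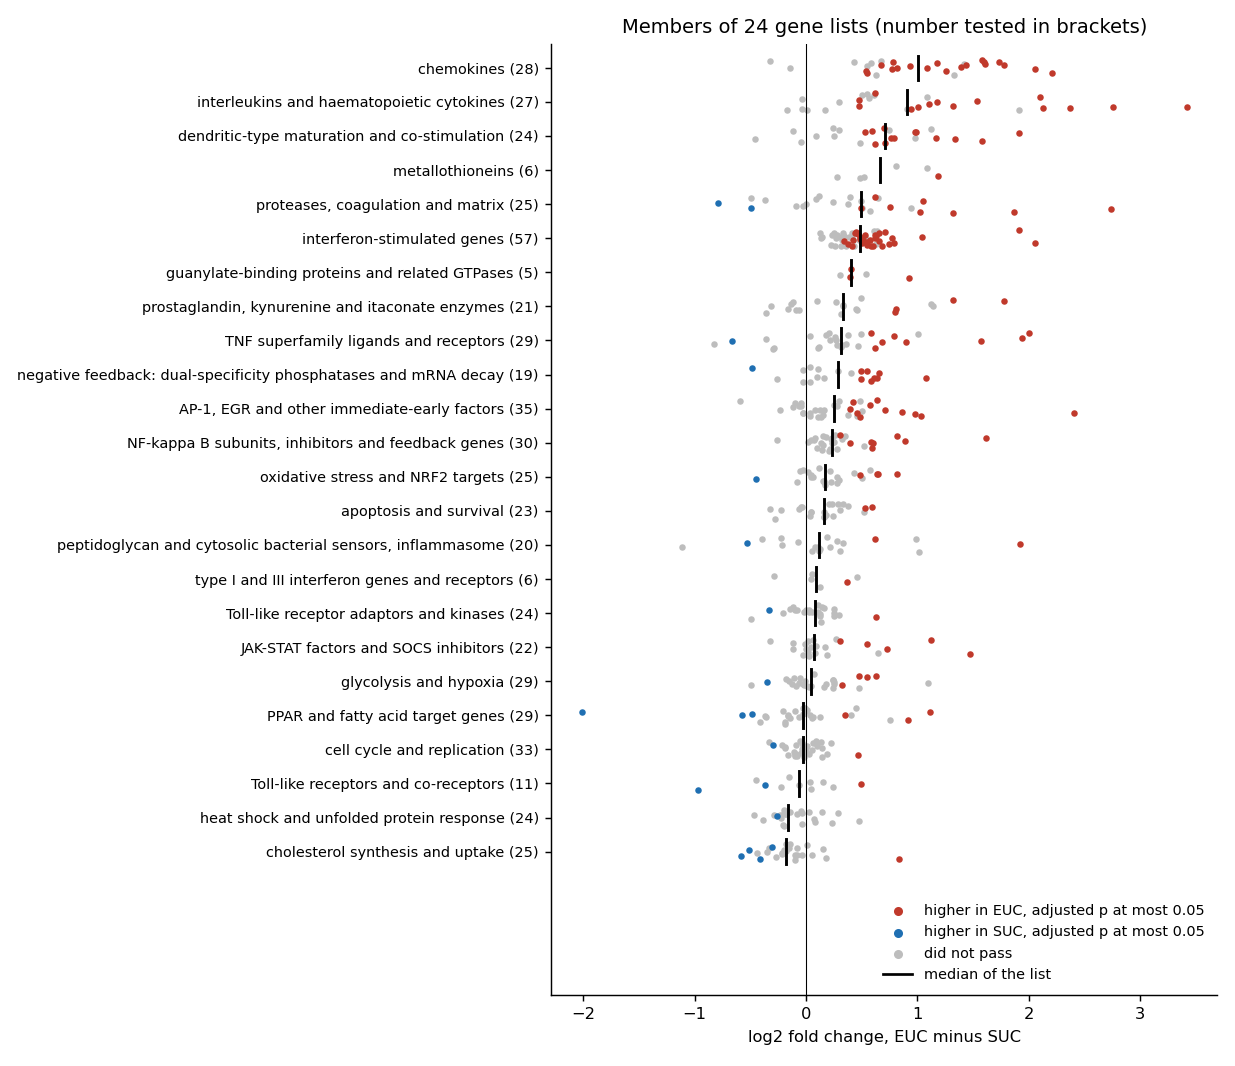
Each point is a tested member of one of 24 gene lists, placed by its log2 fold change, EUC minus SUC, and the black bar is the median of the list. Chemokines and interleukins have the highest medians (1.01 and 0.91), and cholesterol genes the lowest (-0.18).

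Set beside PBS, the DEGs higher in EUC were genes with their lowest level in PBS cells. The PBS mean was below both BEV groups for 123 of the 126, and 19 of the 126 had no count in PBS. COL4A1, GPR157 and MYO7B, named after their values were seen, were the 3 whose PBS mean lay between SUC and EUC. Of the 6 DEGs higher in SUC, 5 had their highest mean in PBS, and for PDK4 the PBS mean lay between EUC and SUC. The 593 and 244 genes called at an adjusted p of at most 0.05 showed the same, with PBS lowest for 565 of the 593 and highest for 213 of the 244. Over all 17198 tested genes, PBS was lowest for 7604 and highest for 7474. A few genes departed from this order and were named after their values were seen. In 9 genes higher in SUC, PBS was lowest. They included TLR2, GDF11, a growth factor of the TGF-beta family, with 21.6, 23.6 and 20.6 CPM in EUC, 32.9, 38.8 and 31.0 CPM in SUC and 17.1, 19.4 and 20 CPM in PBS, and NFATC1, a calcium-dependent transcription factor, with 16.6, 15.4 and 15.9 CPM in EUC, 25.2, 22.7 and 22 CPM in SUC and 13.9, 15.1 and 15.2 CPM in PBS. The SUC libraries of both were above every EUC and every PBS library. In 8 genes higher in EUC, PBS was highest, among them SLC40A1, the iron exporter ferroportin, with 10.7, 10.4 and 10.4 CPM in EUC, 6.90, 7.25 and 6.47 CPM in SUC and 13.2, 12.7 and 14 CPM in PBS. These positions are a description, since the same 3 PBS libraries stand beside both groups.

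The libraries of PL-isolated BEVs, none of which is in EUC or SUC, gave a second comparison at the same doses. Species and dose changed together there too, so a species difference named below includes that of the dose. All libraries were fitted together and share 1 estimate of the spread. In EPL against SPL, 18 DEGs (0.105%) were higher in EPL and 3 (0.0174%) in SPL, and at an adjusted p of at most 0.05 the counts were 147 (0.855%) and 41 (0.238%). Of the 126 DEGs higher in EUC, 125 had a positive log2 fold change in EPL against SPL, 66 (52.4%) had an adjusted p of 0.05 or less, and 17 (13.5%) were DEGs. Those 17 made up 94.4% of the 18. All 6 DEGs higher in SUC were lower in EPL than in SPL, 4 passed, and PDK4 was a DEG. The exception in direction was SERPINB9P1, at a mean under 1 CPM. The wider calls at an adjusted p of at most 0.05 between EUC and SUC repeated less. Of the 593 higher in EUC, 581 kept the direction and 137 (23.1%) passed in EPL against SPL. Of the 244 higher in SUC, 233 kept it and 35 (14.3%) passed. Called as higher in EPL were 7 of 57 interferon-stimulated genes, 8 of 28 chemokines, 5 of 24 maturation genes and 4 of 27 interleukins. With UC these counts were 30, 19, 13 and 14. LAMP3 (adjusted p = 0.000414), IL12B (1.54, adjusted p = 0.00222) and CALCRL (1.47, adjusted p = 0.000539) were DEGs of both comparisons. LAMP3 had 42.9, 47.8 and 43.6 CPM in EPL and 20.7, 16.9 and 17.6 CPM in SPL, again without overlap. IL23A (0.97, adjusted p = 0.0079) and IL1B (0.65, adjusted p = 0.0172) passed with smaller log2 fold changes than 2.37 and 1.53 between EUC and SUC. TNF, which did not pass between EUC and SUC, was lower in EPL than in SPL (-0.70, adjusted p = 0.0079). The 3 DEGs of the PL comparison that were not DEGs between EUC and SUC were PLIN2, NMNAT2 and ABCA1. The count of 18 genes that were DEGs in the same direction in both comparisons fell to 4 without SPL2, 5 without SPL1, 5 without SPL3, 6 without EPL2, 10 without EUC2 and 11 without EPL1, and was 7 with only the 6 libraries of each comparison.

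**Figure D5:**
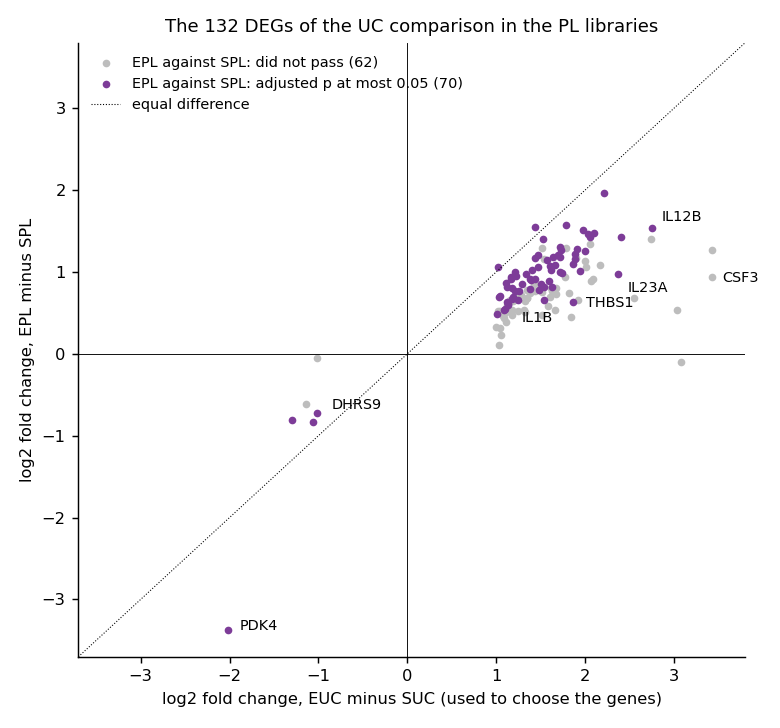
Log2 fold changes of the 132 DEGs between EUC and SUC (horizontal), the values by which they were chosen, and between EPL and SPL (vertical), which share no library with them. All but 1 lie on the same side of 0 on both axes, 70 passed at an adjusted p of at most 0.05 in the PL libraries (purple), and most lie nearer to 0 there than the dotted line of equal difference.

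The size of the species difference was smaller in the PL libraries for most of these genes. The median log2 fold change of the 126 DEGs was 1.49 between EUC and SUC and 0.81 between EPL and SPL, and 124 of the 126 had the larger value with UC, but the genes had been chosen by their value with UC. No gene passed the DEG thresholds (0%) in a test of the difference itself in edgeR, where the smallest adjusted p was 0.0717 and 659 genes had an unadjusted p of at most 0.05. DESeq2 passed 3 genes by these thresholds and 13 by the adjusted p of 0.05 alone, and limma-voom passed 0 and 2. The genes with the smallest p, PLIN2 and THBS1, were named after their values were seen. PLIN2, the coat protein of lipid droplets, had 67.6, 74.0 and 85.9 CPM in EUC, 104, 84.4 and 115 CPM in SUC, 83.5, 71.2 and 79.8 CPM in EPL and 250, 216 and 203 CPM in SPL. The 3 SPL libraries were above all others. THBS1 had 78.4, 87.0 and 78.4 CPM in EPL and 59.1, 48.3 and 49.6 CPM in SPL, and its species difference of 0.63 there was below the 1.87 seen with UC, with the SPL libraries above the SUC libraries.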

How the data were processed

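RNA libraries (NEB kit) were sequenced paired-end by the authors. Raw read counts of each gene in 15 libraries were deposited as a single table. Reads were aligned to hg38. The submitters' processing notes name FastQC 0.11.5, HISAT2 2.1.0, StringTie 1.3.3b, DESeq 1.28.0 and featureCounts, and the strand setting is not given in the sources used here. Of 60286 listed genes, 23219 had no count in any library, with 0 rows that name no gene and 0 unused columns. Libraries were grouped by their labels. Between 14399421 and 16637345 reads were counted per library, and counts limit the precision of low genes.

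Here the deposited counts were fitted with edgeR 4.0.16 in R 4.3.3. filterByExpr kept 17198 genes, TMM scaled the libraries, and a quasi-likelihood model of the 5 groups was fitted to all 15 libraries, without a replicate block. Adjusted p-values are Benjamini-Hochberg over all tested genes. The common biological coefficient of variation was 0.118. Log2 CPM used a prior count of 2. The test was checked on simulated counts. Alternatives were DESeq2 1.42.0, limma-voom (limma 3.58.1), RLE scaling, fits to the 6 libraries compared, other filters, glmTreat, a replicate block and leaving out each library. Added after seeing the data were a fit without EUC3 and SUC3 and one with the ribosomal protein share as a covariate.

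Gene lists (25, with 656 genes) and the rule for named genes were chosen with earlier results of these data known. The rule takes IL1B, IL6, CXCL8, GAPDH, TNF and IFNB1, the 12 DEGs in each direction with the largest fold change, a mean of at least 1 CPM and no overlap of the groups, the 5 DEGs in each direction with the smallest p, and up to 4 called members of each list. Positions and overlaps come from GENCODE 44 and promoters from RefSeq (GRCh38.p14). Those printed were identical to the hg38 genome.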

Additional observations from a re-analysis of the deposited data

How the results depend on the processing

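The direction of the comparison, with more genes higher in EUC than in SUC, was the same under each alternative run. The counts were not. With only the 6 libraries compared, DEGs higher in EUC and in SUC numbered 24 and 0, genes with an adjusted p up to 0.05 numbered 230 and 21, and 7 DEGs were shared with the PL comparison. The test for the isolation method could not be made there. glmTreat gave 7 and 0 DEGs between EUC and SUC, 0 and 1 between EPL and SPL, and 0 shared. DESeq2 gave 35 DEGs higher in EPL, 34 shared DEGs and 3 genes whose species difference depended on the method. Without a filter on low counts there were 10 DEGs higher in SUC, 38 higher in EPL, 5 higher in SPL, 34 shared and 4 that depended on the method. Of the 126 DEGs, 122 were also called by DESeq2 (of 158), 122 by limma-voom (of 132) and 126 with RLE scaling (of 127).

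Leaving out 1 library gave 73 to 139 DEGs higher in EUC and 2 to 10 higher in SUC, lowest without SUC2 for both. At an adjusted p of at most 0.05 the ranges were 312 to 673 and 92 to 304. DEGs higher in EPL ranged from 3 to 20 and in SPL from 2 to 5, shared DEGs from 4 to 21, and genes that depended on the method from 0 to 1. With EUC3 and SUC3 left out, 5 DEGs were higher in SPL and 1 gene depended on the method. With the ribosomal protein share as a covariate there were 16 DEGs higher in SUC, 1248 and 907 genes that passed the 0.05 threshold in EUC and SUC, 42 and 5 DEGs higher in EPL and SPL, 38 shared and 3 that depended on the method, and the cause was not tested. Of the 89 named genes called at an adjusted p of at most 0.05, 53 kept the call under all 24 alternatives and 36 lost it under at least 1, while TNF, not called, passed under 5. The log2 fold change of GAPDH changed sign, to 0.0228 without EUC1, 0.0198 without SUC3 and 0.0122 with the covariate, and ranged from -0.0546 to 0.0228 when 1 library was left out. That of IFNB1 was -0.20 with limma-voom, -0.81 with EUC3 and SUC3 left out and -0.12 without SUC1, and ranged from -0.798 without EUC3 to 0.573 without EUC1.

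Equal replicate numbers did not pair the libraries by the check used. Deviations from the group means correlated at 0.39 between EUC1 and SUC1, 0.05 between EUC2 and SUC2 and 0.52 between EUC3 and SUC3, and EUC2 correlated better with SUC1 (0.12). With the replicate block, 114 DEGs were higher in EUC, 113 of them among the 126, and 7 were higher in SUC. Of the named genes, the block ended the call of CD180, and 1 gene, THBS1, had a species difference that depended on the method at an adjusted p of at most 0.05.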
